A study of Homo sapiens with 6 samples.

Results

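The data described here are the mRNA levels of 10 genes that carry or carry out the insulin signal on hepatic glucose output, in Hep3B cells with and without a nuclear form of PD-L1. They are the forkhead factors FOXO1, FOXO3 and FOXO4, the insulin receptor gene INSR with its substrates IRS1 and IRS2, the gluconeogenic enzyme genes G6PC, PCK1 and PCK2, and the coactivator gene PPARGC1A. They were chosen by name for their roles, with earlier results of these data known. Of the 10, 7 were found among the 27009 genes of the expression table, and all 7 passed the filter on low values, as did 15076 genes in all. G6PC, PCK1 and PPARGC1A were not analysed here.

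Insulin binds its receptor, a tyrosine kinase, which phosphorylates the adaptor proteins IRS1 and IRS2. These recruit phosphatidylinositol 3-kinase, and the kinase AKT is then activated and phosphorylates the FOXO factors, which leave the nucleus. In the fasted liver the FOXO factors stay nuclear and, with PPARGC1A, drive the genes of gluconeogenesis, the making of glucose from lactate, amino acids and glycerol. FOXO factors also act on genes of cell cycle arrest, apoptosis, autophagy and insulin signaling itself, IRS2 among them. RNA levels do not show where a FOXO protein is or whether it is phosphorylated.

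Hep3B is a human hepatocellular carcinoma line. In all 6 libraries the endogenous PD-L1 gene, CD274, had been knocked out. The 3 vector libraries came from such cells with a vector, and the 3 nPD-L1 libraries from such cells in which nPD-L1, a PD-L1 mutated so that it gathers in the nucleus, was overexpressed. The nPD-L1 sequence was cloned behind the CMV promoter of a puromycin resistance plasmid and brought in by lentivirus as a stable line, so that its level was not under the control of the PD-L1 gene. Nothing in the labels says that the libraries of a group came from separate cultures, so the p values measure only the spread between these samples, which may be technical.

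The deposited values were reads per gene divided by a size factor of each library, called scaled reads here. The libraries held 17427519 to 22253295 reads on genes. CD274 was examined first and had 28.3, 38.4 and 47.8 scaled reads in the vector libraries, against 16.8, 19.2 and 30.9 in those labelled nPD-L1. Its level was thus not raised where nPD-L1 was meant to be overexpressed, the labels could not be checked by it, and every direction below is that of the libraries labelled nPD-L1. The liver markers went partly against the name of the line. Of 12 hepatocyte markers in the table, 7 (AHSG, ALB, APOA1, APOA2, APOB, TF and TTR) had at most 3.39 scaled reads in any library. FGA had 1861 to 3286, FGB 962 to 1540 and APOH 140 to 308. The remaining markers were lower, SERPINA1 with at most 41.4 and HNF4A with at most 51.6. Of the 5 hepatocyte markers that could be tested, 1 (HNF4A) was called higher and 0 lower, against 4.04% and 0.922% of all genes tested. HNF4A passed the filter on low values only through the libraries labelled nPD-L1. Its call was lost without nPD-L1 replicate 1, 2 or 3 (adjusted p = 0.134, 0.111 and 0.063, limma). The summed level of the 12 markers was 3209 to 5162 scaled reads in the vector libraries and 3066 to 3600 in the others. Of 8 markers of blood, endothelial, stromal and squamous cells, 7 had at most 8.31 scaled reads in any library. The other one, the collagen gene COL1A1, moved with the groups, from 49.9 to 82.8 scaled reads in the vector libraries to 445 to 487 in the libraries labelled nPD-L1 (log2 fold change 2.84, adjusted p = 8e-06, limma). The summed level of these 8 markers was 70 to 93 in the vector libraries and 458 to 500 in the others, most of it from COL1A1 in every library. Their part in the results below was not tested. In bulk RNA, fewer cells of a type and less RNA per cell cannot be told apart.

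Among the 7 genes, FOXO1 was higher and IRS2 was lower in the libraries labelled nPD-L1, and the other 5 did not pass the test. The test was limma on log2(scaled reads + 1), with p values adjusted over all 15076 genes by the Benjamini-Hochberg method and a call at an adjusted p under 0.05. Of all genes tested, 4.04% were called higher and 0.922% lower, against 1 and 1 of these 7. The groups did not overlap for 5 of the 7 genes. FOXO1, FOXO3 and INSR were higher in every library labelled nPD-L1 than in any vector library, and IRS2 and PCK2 were lower. Of all genes tested, 12.0% were higher without overlap and 8.54% were lower without overlap. The median log2 fold change was 0.28 over the 7 genes and -0.02 over all genes tested.

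**Figure D1:**
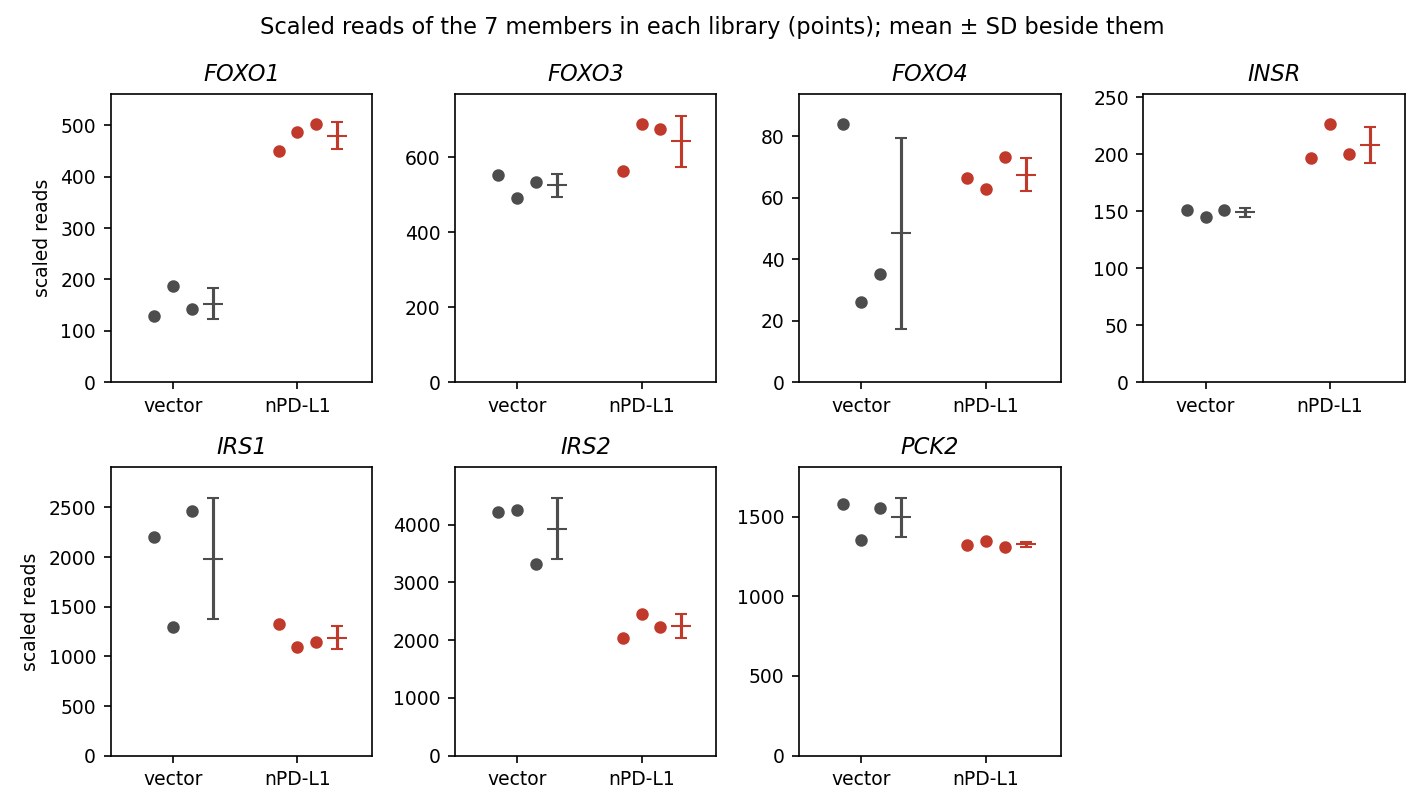
Scaled reads (vertical axes, from 0) of the 7 genes in each of the 3 vector libraries (grey points) and the 3 libraries labelled nPD-L1 (red points), with the mean ± SD of each group beside the points. FOXO1 lies at 129 to 187 against 451 to 502 and IRS2 at 3316 to 4259 against 2046 to 2453, whereas the IRS1 and FOXO4 groups overlap through vector replicate 2 and vector replicate 1.

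FOXO1 encodes the forkhead factor that is best known for switching on gluconeogenic genes in liver. The gene (ENSG00000150907) spans 40469953 to 40666597 on the minus strand of chromosome 13 in GRCh38, the build of all gene positions here. Its promoter is shown because FOXO1 had the largest change of the 7 genes. The 250 bases before the RefSeq transcript start (GRCh38.p14, chr13:40666642-40666891, minus strand, written in the direction of the gene) are given below.
FOXO1: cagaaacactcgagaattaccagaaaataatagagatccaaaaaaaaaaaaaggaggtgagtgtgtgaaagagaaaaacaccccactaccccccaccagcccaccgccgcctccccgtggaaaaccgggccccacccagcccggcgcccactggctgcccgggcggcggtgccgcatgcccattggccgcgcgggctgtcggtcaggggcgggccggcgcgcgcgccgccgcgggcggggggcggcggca
Both the FOXO element GTAAACA and the core of the insulin response element, CAAAACA, were searched on both strands of windows from 250 bases before to 50 after each start. Neither is found in the FOXO1 window, which says only that these letters are not in it.

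FOXO1 had 129, 187 and 143 scaled reads in vector replicates 1, 2 and 3. It had 451, 488 and 502 in the libraries labelled nPD-L1 replicates 1, 2 and 3. The lowest of the latter lay far above the highest vector library. The means were 153 ± 30.4 and 480 ± 26.0 (SD, n = 3 each), a log2 fold change of 1.66 ± 0.16 (SE), or 3.15-fold, with a 95% confidence interval of 1.30 to 2.01 (adjusted p = 0.00012, limma). FOXO1 was called under each of the 17 alternative settings, with log2 fold changes from 1.54 to 1.81. A long noncoding gene on the same strand, LINC00598, and a pseudogene overlap FOXO1. LINC00598 had at most 8.4 scaled reads in any library, and the near-identical pseudogene FOXO1B at most 14.5.

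FOXO3, a close relative that acts in stress resistance and apoptosis, lies on the plus strand of chromosome 6 from 108559835 to 108684774 (ENSG00000118689). It had 553, 492 and 533 scaled reads in the vector libraries, against 565, 688 and 676 in those labelled nPD-L1. The groups did not overlap, but nPD-L1 replicate 1 exceeded vector replicate 1 by little. The log2 fold change was 0.28 (95% confidence interval 0.02 to 0.55), which did not pass the adjustment over all genes (adjusted p = 0.304, limma). The near-identical pseudogene FOXO3B held 37.3 to 74.8 scaled reads in the vector libraries and at least 69.8 in each of the others, and reads that fit both copies cannot be assigned with certainty.

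FOXO4, a smaller member of the family, lies on the plus strand of chromosome X from 71096197 to 71103535 (ENSG00000184481). It had 83.8, 26.0 and 35.3 scaled reads in the vector libraries, against 66.4, 62.7 and 73.3 in those labelled nPD-L1. Vector replicate 1 was the highest of all 6 libraries and the other vector libraries were the lowest, so the groups overlapped. The log2 fold change was 0.65 with a wide interval, -0.18 to 1.47 (adjusted p = 0.506, limma). It was 1.13 without vector replicate 1 (adjusted p = 0.077) and 0.30 without vector replicate 2 (adjusted p = 0.725). The FOXO4 window was the only one of the 7 genes with the element GTAAACA, which 3.42% of all 35116 promoter windows hold, and the match lies after the RefSeq start.

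The makeup of the FOXO transcripts therefore differed between the groups. Per kilobase of gene length, FOXO1 made up 17.8%, 29.7% and 22.5% of the summed level of FOXO1, FOXO3 and FOXO4 in the vector libraries, with a mean of 23.3% ± 5.99 (SD, n = 3). It made up 43.9%, 42.2% and 42.5% in the libraries labelled nPD-L1, with a mean of 42.9% ± 0.936 (SD, n = 3). Every library labelled nPD-L1 thus had a larger FOXO1 share than any vector library. The summed level of the 3 genes was 101 to 117 scaled reads per kilobase in the vector libraries and 165 to 189 in the others.

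**Figure D2:**
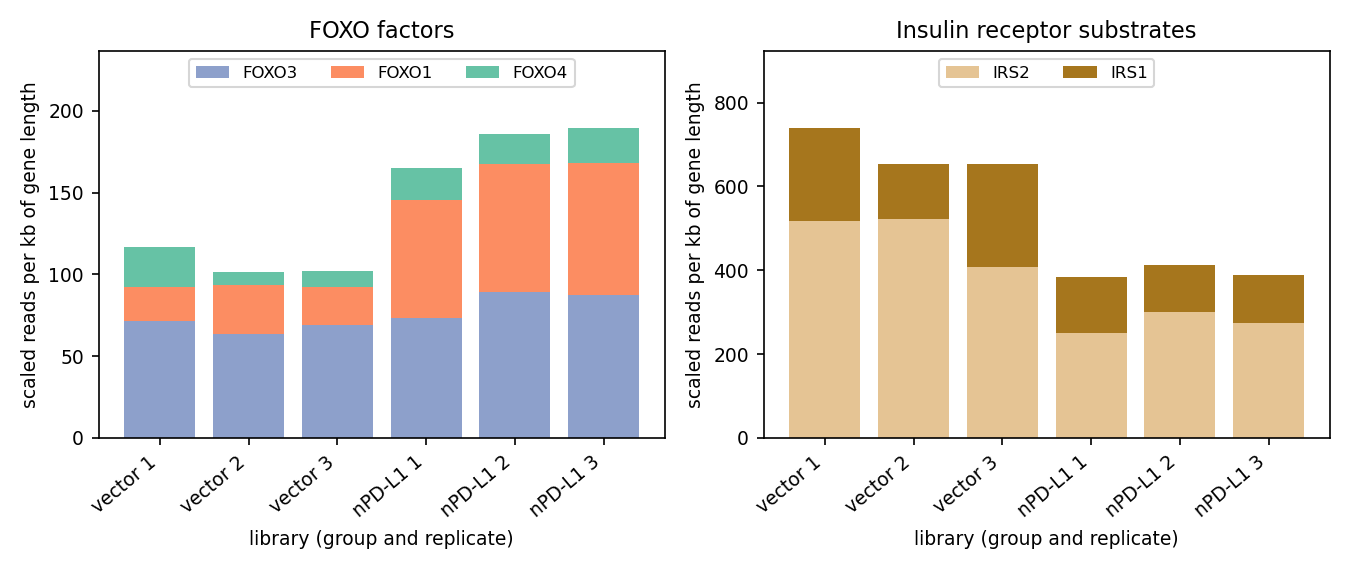
Scaled reads per kilobase of gene length (vertical axes, from 0) in each library, stacked over the FOXO factors (left) and the insulin receptor substrates (right). The FOXO1 segment takes 17.8% to 29.7% of the FOXO bars in the vector libraries and 42.2% to 43.9% in the libraries labelled nPD-L1, while the bars of IRS1 and IRS2 together are lower in the latter at an IRS2 share of 65.5% to 73.2%.

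INSR encodes the insulin receptor and lies on the minus strand of chromosome 19 from 7112255 to 7294034 (ENSG00000171105). It had 151, 145 and 151 scaled reads in the vector libraries, against 197, 226 and 200 in those labelled nPD-L1. All of the latter were above all of the former, with means of 149 ± 3.76 and 208 ± 15.6 (SD, n = 3 each). The log2 fold change of 0.47 (95% confidence interval 0.15 to 0.79) did not pass the adjustment over all genes (adjusted p = 0.113, limma). Over the 17 alternatives the adjusted p was 0.088 to 0.439.

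IRS1 encodes an adaptor that the insulin and IGF receptors phosphorylate, and lies on the minus strand of chromosome 2 from 226731317 to 226799759 (ENSG00000169047). It had 2198, 1294 and 2459 scaled reads in the vector libraries, against 1321, 1096 and 1145 in those labelled nPD-L1. Vector replicate 2 lay far below the other vector libraries and within the range of the other group. The log2 fold change was -0.69 (95% confidence interval -1.14 to -0.24, adjusted p = 0.099, limma), and IRS1 was not called. Without vector replicate 2 it was called, at a log2 fold change of -0.97 (adjusted p = 8.1e-06), and DESeq2 on the recovered reads also called it, at -0.74 (adjusted p = 0.0065). In vector replicate 2 long genes were low in general. The 2940 genes of at least 8000 bases had a median log2 difference of -0.21 from the mean of the other vector libraries, and the 2308 genes under 2000 bases a median of 0.27. IRS1, of 9953 bases, was lower there by a log2 difference of -0.84. Vector replicate 3 differed the other way, with medians of 0.17 for the long genes and -0.2 for the short ones. For IRS1 the log2 difference of vector replicate 3 was 0.54. The part of this length pattern in the IRS1 result was not tested.

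IRS2 encodes the adaptor that carries much of the insulin signal in liver and whose gene FOXO factors are known to activate. It lies on the minus strand of chromosome 13 from 109752698 to 109786568 (ENSG00000185950). Its promoter is shown because IRS2 was the called gene among the 7 that was lower, and because it holds the insulin response core. The 250 bases before the RefSeq start (GRCh38.p14, chr13:109786584-109786833, minus strand) are written in the direction of the gene, and the capitals mark TGTTTTG, the reverse complement of CAAAACA, which spans the bases 40 to 34 before the start.
IRS2: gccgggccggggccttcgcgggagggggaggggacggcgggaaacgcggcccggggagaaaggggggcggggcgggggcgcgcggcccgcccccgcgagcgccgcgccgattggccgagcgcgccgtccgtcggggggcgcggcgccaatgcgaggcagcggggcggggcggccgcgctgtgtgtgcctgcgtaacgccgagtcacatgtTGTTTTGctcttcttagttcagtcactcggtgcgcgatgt
CAAAACA in either direction is found in 4.92% of all windows, and among the 7 genes in that of IRS2 alone. The match is a description of these letters and does not show a site in use.

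IRS2 had 4218, 4259 and 3316 scaled reads in the vector libraries, against 2046, 2453 and 2229 in those labelled nPD-L1. Even vector replicate 3, the lowest vector library, lay above every library labelled nPD-L1. The means were 3931 ± 533 and 2243 ± 204 (SD, n = 3 each), a log2 fold change of -0.80 ± 0.12 (SE), which is 0.573 times the vector level (95% confidence interval of the log2 fold change -1.08 to -0.53, adjusted p = 0.0028, limma). IRS2 was called under each of the 17 alternatives, with log2 fold changes from -0.92 to -0.74. It was thus lower in the libraries in which FOXO1, encoding a factor known to activate it, was higher. An antisense gene, AL162497.1, overlaps IRS2, and since it is not given whether the counting used strand, reads of the overlap cannot be told apart.

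The balance between the substrates did not separate the groups. Per kilobase, IRS2 made up 70.1%, 80.1% and 62.3% of the sum of IRS1 and IRS2 in the vector libraries, against 65.5%, 73.2% and 70.4% in those labelled nPD-L1. These ranges overlapped. The summed level was 653 to 739 scaled reads per kilobase in the vector libraries and 384 to 412 in the others, without overlap.

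PCK2 encodes the mitochondrial form of phosphoenolpyruvate carboxykinase, which makes phosphoenolpyruvate from oxaloacetate. It lies on the plus strand of chromosome 14 from 24094053 to 24110598 (ENSG00000100889). It had 1576, 1355 and 1555 scaled reads in the vector libraries, against 1320, 1344 and 1312 in those labelled nPD-L1. The groups did not overlap, but vector replicate 2 lay close to the other group. The log2 fold change was -0.17 (95% confidence interval -0.39 to 0.05, adjusted p = 0.509, limma). NRL, on the opposite strand, overlaps PCK2 and had 17.7 to 41.4 scaled reads.

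**Figure D3:**
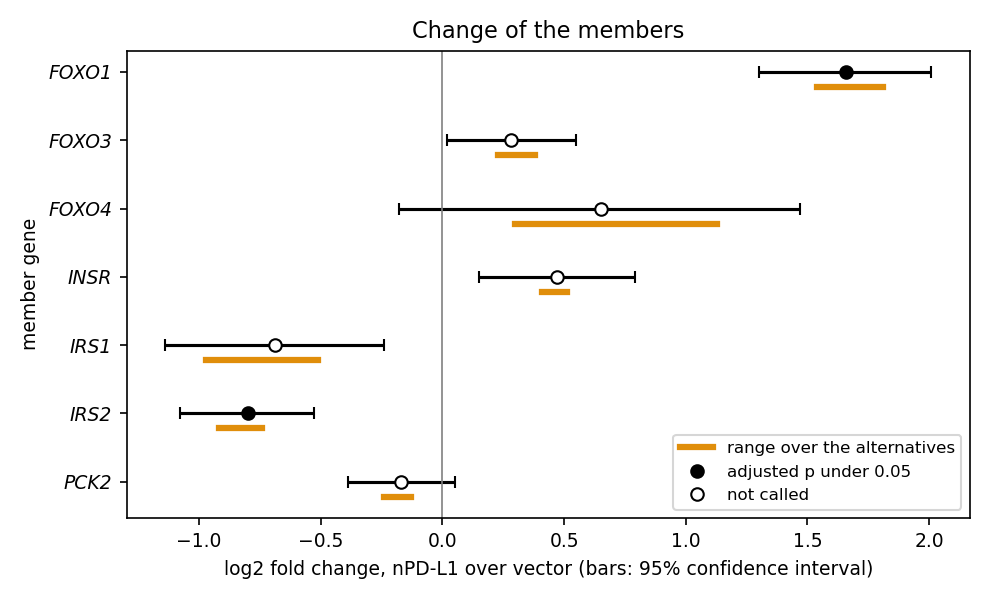
Log2 fold change of the libraries labelled nPD-L1 over the vector libraries (horizontal axis) for the 7 genes, with 95% confidence intervals (black bars) and, below each, the range over the 17 alternative settings (orange). Filled circles mark an adjusted p under 0.05, which FOXO1 at 1.66 and IRS2 at -0.80 reach, and the IRS1 interval of -1.14 to -0.24 lies near that of IRS2 without a call.

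Ordered by scaled reads per kilobase in the vector libraries, IRS2 stood first with 483 ± 65.5 (SD, n = 3). PCK2 followed with 357 ± 29, IRS1 with 199 ± 61.4, FOXO3 with 68.2 ± 4.01 and FOXO1 with 24.6 ± 4.88. INSR at 14.2 ± 0.36 and FOXO4 at 14.0 ± 9.0 came last and overlapped, while all other neighbors in this order were separated. In the libraries labelled nPD-L1 the order began with PCK2 at 316 ± 4.0, ahead of IRS2 at 276 ± 25.0 and IRS1 at 119 ± 11.9. FOXO3 at 83.3 ± 8.80 and FOXO1 at 77.0 ± 4.17 were then no longer separated. INSR at 19.9 ± 1.49 and FOXO4 at 19.6 ± 1.56 overlapped again.

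Of 48 further genes of insulin signaling, 43 were tested, and 2 (4.65%) were called higher and 0 lower by limma, near the 4.04% and 0.922% of all genes tested. Of the 43, 7 were higher and 2 lower at an unadjusted p under 0.05, and edgeR and DESeq2 each called 2 and 0. The median log2 fold change was 0.05. PHLPP1, a phosphatase that inactivates AKT, rose from 185, 152 and 186 scaled reads to 287, 272 and 296 (log2 fold change 0.71, adjusted p = 0.015, limma). PIK3CD, a catalytic subunit of phosphatidylinositol 3-kinase best known from leukocytes, rose from 236, 187 and 276 to 426, 351 and 356 (log2 fold change 0.70, adjusted p = 0.035, limma). Both calls were lost without vector replicate 1 (adjusted p = 0.050 for PHLPP1 and 0.123 for PIK3CD) and without nPD-L1 replicate 1 (0.078 and 0.175), 2 (0.056 and 0.084) or 3 (0.095 and 0.118).

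The AKT kinases themselves gave intervals that included 0. AKT1 had 2315 to 2811 scaled reads in the vector libraries and 2443 to 2913 in the others (log2 fold change 0.05, 95% confidence interval -0.20 to 0.29). AKT2, the form most tied to insulin action, had 3412 to 4048 and 3727 to 3862 (0.01, -0.21 to 0.23). The estimate of both genes changed sign without vector replicate 2 and without nPD-L1 replicate 1, and that of AKT2 also with upper-quartile factors. PIK3R1, the regulatory subunit that binds IRS proteins, had 356, 260 and 395 scaled reads in the vector libraries, against 218, 228 and 246 in those labelled nPD-L1. These groups did not overlap, and the log2 fold change of -0.53 (95% confidence interval -0.90 to -0.15) was not called (adjusted p = 0.137, limma). It was called without vector replicate 2 (-0.70, adjusted p = 0.0038). PIK3R1 has 10767 bases, and the part of the length pattern of that library in this result was not tested.

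Among the enzymes and carriers of gluconeogenesis, 24 of 30 listed genes were tested, 2 (8.33%) were called higher and 0 lower by limma, against 4.04% and 0.922% of all genes tested, and the median log2 fold change was -0.07. At an unadjusted p under 0.05 the counts were also 2 and 0, and edgeR and DESeq2 each called 2 and 0. Those called were enolase genes, whose products also serve glycolysis. ENO2 rose from 622, 670 and 636 scaled reads to 849, 905 and 876 (log2 fold change 0.45, adjusted p = 0.026, limma). ENO3 rose from 76.7, 68.9 and 86.3 to 135, 120 and 216 (log2 fold change 0.97, adjusted p = 0.039, limma). ENO2 was not called without vector replicate 1 (adjusted p = 0.145) or 3 (0.051) or without nPD-L1 replicate 1 (0.080), 2 (0.162) or 3 (0.119). ENO3 was not called without vector replicate 1 (0.141), without nPD-L1 replicate 1 (0.107) or 3 (0.173), or with upper-quartile factors (0.052). PC, pyruvate carboxylase, which opens the pathway, had 322 to 405 scaled reads in the vector libraries and 367 to 411 in the others (log2 fold change 0.12, 95% confidence interval -0.17 to 0.41). FBP1, the fructose bisphosphatase of liver, had 0 scaled reads in all vector libraries and at most 1.01 in the others, so no fold is given.

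A list of regulators of gluconeogenic genes included 5 called genes. It held transcription factors, coactivators and repressors, and also kinases and a receptor. Of 36 listed regulators, 30 were tested, and 4 (13.3%) were called higher and 1 (3.33%) lower by limma, against 4.04% and 0.922% of all genes tested, with a median log2 fold change of 0.17. At an unadjusted p under 0.05 the counts were 7 and 1, and edgeR and DESeq2 each called 4 and 1. FOXA2, a pioneer factor of the fasted liver, fell from 1856, 1752 and 1953 scaled reads to 742, 700 and 661 (log2 fold change -1.40, 95% confidence interval -1.62 to -1.18, adjusted p = 1.2e-05, limma). Its relative FOXA1 rose from 262, 242 and 253 to 514, 476 and 510 (log2 fold change 0.99, adjusted p = 0.00057, limma). These FOXA genes thus moved in opposite directions, and both were called under each alternative.

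HNF4A, a nuclear receptor that maintains hepatocyte gene expression, rose from 19.2, 11.3 and 6.24 scaled reads to 51.3, 51.6 and 33.8 (log2 fold change 1.91, adjusted p = 0.023, limma). PPARGC1B, the paralog of PPARGC1A, rose from 166, 146 and 274 to 348, 359 and 364 (0.92, adjusted p = 0.031, limma). CEBPB, a factor of the acute phase response and of glucagon action, rose from 3118, 3429 and 2690 to 4863, 4602 and 3880 (0.53, adjusted p = 0.033, limma). HNF4A was at a low level throughout. It passed the filter on low values only through the libraries labelled nPD-L1, since vector replicate 3 had 6.24. With at least 10 scaled reads required in every library it was not tested, and 3 regulators were called higher. HNF4A was not called without nPD-L1 replicate 1 (adjusted p = 0.134), 2 (0.111) or 3 (0.063). PPARGC1B was not called without vector replicate 1 (0.154) or without nPD-L1 replicate 1 (0.131), 2 (0.101) or 3 (0.146), nor CEBPB without vector replicate 1 (0.134) or 3 (0.072) or without nPD-L1 replicate 1 (0.166) or 2 (0.154). SIRT1, a deacetylase of FOXO proteins, had 1122, 1108 and 1339 scaled reads in the vector libraries, against 1579, 1487 and 1541 in the others, without overlap. Its log2 fold change of 0.37 (95% confidence interval 0.14 to 0.61) was not called (adjusted p = 0.084, limma). It was called without vector replicate 3 (adjusted p = 0.027).

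**Figure D4:**
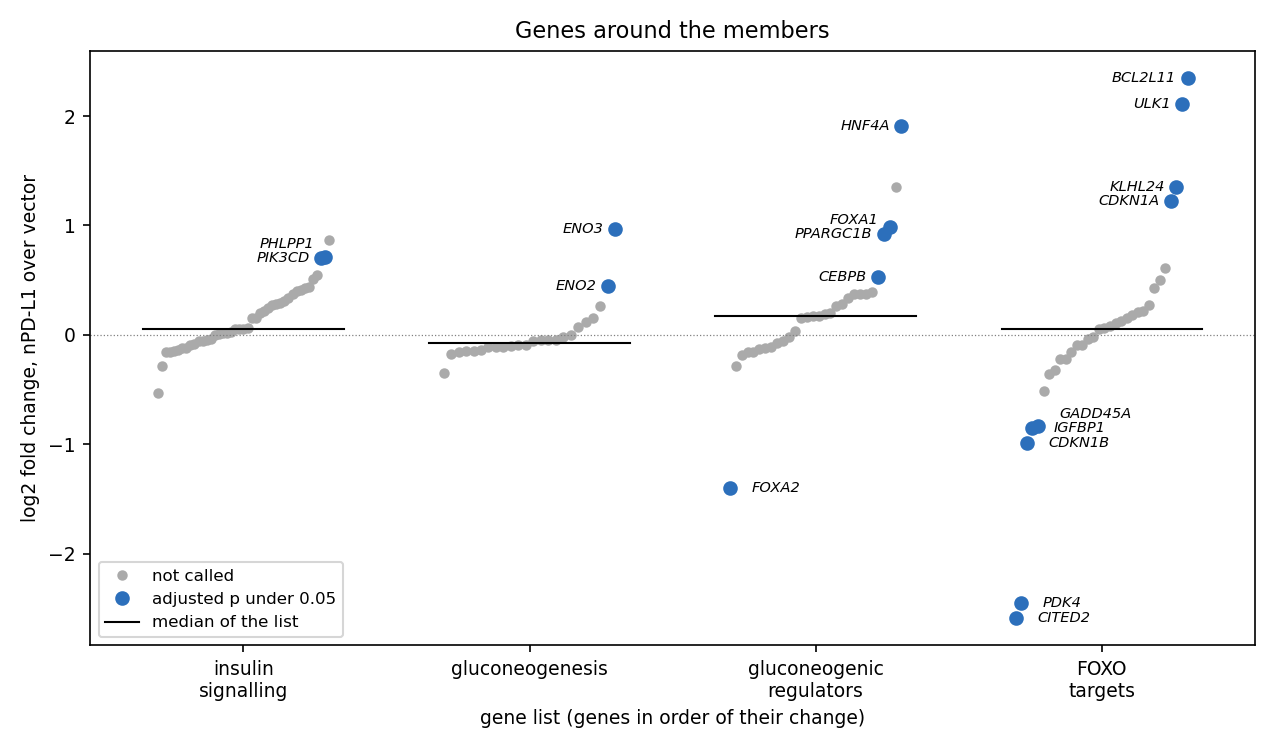
Log2 fold change of the libraries labelled nPD-L1 over the vector libraries (vertical axis) for each tested gene of 4 lists (horizontal axis, genes in order of their change), with the called genes in blue and named, and the median of each list as a line. The medians lie between -0.07 and 0.17, and the FOXO targets spread the most, from -2.59 to 2.35, with called genes on both sides of 0.

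Genes listed as FOXO targets from general knowledge were called in both directions. Like the other lists, this one was chosen with earlier results of these data known, so its shares are not those of an independent set. Of 39, 32 were tested, and 4 (12.5%) were called higher and 5 (15.6%) lower by limma, against 4.04% and 0.922% of all genes tested, with a median log2 fold change of 0.05. At an unadjusted p under 0.05 the counts were 6 and 6, edgeR called 4 and 5, and DESeq2 called 4 and 6. BCL2L11, which encodes the proapoptotic protein BIM, rose from 166, 213 and 201 scaled reads to 878, 1042 and 1032 (log2 fold change 2.35, adjusted p = 3.1e-06, limma). ULK1, the kinase that starts autophagy, rose from 1658, 1638 and 1552 to 6888, 6901 and 7094 (2.11, adjusted p = 3e-07, limma). CDKN1A, an inhibitor of cyclin-dependent kinases, rose from 2747, 3164 and 2380 to 5967, 7149 and 6190 (1.22, adjusted p = 0.00017, limma). KLHL24, a substrate adaptor of a ubiquitin ligase, rose from 189, 276 and 135 to 408, 526 and 546 (1.35, adjusted p = 0.0058, limma), a call that was lost without nPD-L1 replicate 3 (adjusted p = 0.053). In none of these genes did the groups overlap.

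The promoter of BCL2L11 is shown because it is the one of the called FOXO targets that holds GTAAACA, in capitals. The 250 bases are those before the RefSeq start (GRCh38.p14, chr2:111120664-111120913, plus strand), and the match spans the bases 223 to 217 before it.
BCL2L11: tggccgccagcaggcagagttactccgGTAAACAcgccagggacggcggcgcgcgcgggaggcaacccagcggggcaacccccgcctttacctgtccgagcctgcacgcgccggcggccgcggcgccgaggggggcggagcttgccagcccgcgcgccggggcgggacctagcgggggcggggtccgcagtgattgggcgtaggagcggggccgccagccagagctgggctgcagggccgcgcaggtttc
Of the 9 called targets, 7 have a window in the RefSeq table. The insulin response core is found among them in KLHL24, 32 to 26 bases before the start, and ULK1, CDKN1A, PDK4, CITED2 and CDKN1B hold neither motif in these windows. Of the 32 targets tested, 26 have a window, and each motif is found in 3 of these genes. Those with GTAAACA beside BCL2L11, and those with the core beside KLHL24, were not called.

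Of the FOXO targets called lower, PDK4, which slows the oxidation of pyruvate in fasting, fell from 7769, 7937 and 7827 scaled reads to 1490, 1320 and 1500 (log2 fold change -2.45, 95% confidence interval -2.66 to -2.24, adjusted p = 2.3e-07, limma). CITED2, a coregulator that binds the acetyltransferases CBP and p300, fell from 610, 821 and 414 to 118, 97.1 and 80.1 (-2.59, adjusted p = 8.8e-05, limma). CDKN1B, another inhibitor of cyclin-dependent kinases, fell from 1197, 1294 and 1350 to 535, 818 and 612 (-0.99, adjusted p = 0.0025, limma). IGFBP1, a secreted IGF-binding protein that insulin represses in liver, fell from 511, 625 and 700 to 427, 349 and 253 (-0.85, adjusted p = 0.027, limma), a call that was lost without vector replicate 3 (adjusted p = 0.053) and without nPD-L1 replicate 2 (0.070) or 3 (0.115). GADD45A, a growth arrest gene, had a log2 fold change of -0.83 (adjusted p = 0.001, limma).

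FOXO1 and these targets therefore did not share a direction. The inhibitor CDKN1A rose with FOXO1 while CDKN1B fell, and BCL2L11 rose while PDK4 and IGFBP1 fell. FOXO3 and FOXO4, which act on many of the same genes, passed the test in neither direction.

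The genes whose pattern over the 6 libraries was most like that of FOXO1 were sought among the 10724 others that averaged 100 or more. NET1, a guanine nucleotide exchange factor, had a Pearson correlation of 0.9991 with FOXO1 on the log2(scaled reads + 1) scale. PPM1A, a phosphatase, had 0.9983, and NAB1, a corepressor of EGR factors, had 0.9967. The libraries of each group lay together in all 4 genes, so these values mostly describe the step between the groups. The steps were smaller than that of FOXO1, with log2 fold changes of 0.42 for NET1, 0.43 for PPM1A and 0.56 for NAB1.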

How the data were processed

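Total RNA had been made into libraries with a NEBNext Ultra kit and sequenced by a company. Per the labels, CASAVA and HISAT2 2.0.5 were used on hg38. The counting tool and its use of strand are not given in the sources used here. What the authors deposited for each library is a signal, reads per gene divided by a size factor, although the table names them raw. In every library 100% of the values were whole multiples of 1 read within 0.01 reads, so reads were recovered. Columns with the authors' own fold change and p-values were not used. Gene lengths are those of the table. The coordinates of the 7 genes found in it equal GENCODE 29, and those of the other genes were not compared.

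Genes with at least 10 scaled reads in at least 3 libraries were tested with limma 3.58.1 (R 4.3.3) on log2(value + 1), with trend and robust moderation, as tested on simulated data. An exact permutation test cannot go below p = 0.1 with 3 against 3 libraries. Alternatives were upper-quartile factors, trimmed means of M values, pseudocounts of 0.1 and 10, other filters, non-robust moderation, protein-coding genes alone, a replicate block, each library left out, and edgeR 4.0.16 and DESeq2 1.42.0 on the recovered reads. Besides the 10 genes, the rule named up to 4 called genes per list and direction, AKT1, AKT2, PIK3R1, FBP1, PC, SIRT1, PDK4, IGFBP1, CD274 and the 3 genes most like FOXO1. GADD45A, COL1A1, FGA, FGB, APOH and SERPINA1 were named beyond this rule after their values had been seen. PIK3CA and RICTOR are in both the insulin signaling and FOXO target lists, and TXNIP in the regulator and FOXO target lists. Some results for single genes are not reported here. The 10 genes and all lists were chosen with earlier results of these data known. Promoters are from the RefSeq table of GRCh38.p14, which has windows for 9 of the 10 genes.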

Additional observations from a re-analysis of the deposited data

How the results depend on the processing

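Of 543 values of single genes under the alternatives, 487 kept their direction and side of the threshold, 44 lost a call, 7 gained one and 5 changed sign. FOXO1, IRS2, FOXO3, FOXO4, INSR and PCK2 kept their direction and their side of the threshold under all 17 alternatives. The sign changed for AKT1 without vector replicate 2 (-0.034) and without nPD-L1 replicate 1 (-0.015), and for AKT2 with upper-quartile factors (-0.014), without vector replicate 2 (-0.057) and without nPD-L1 replicate 1 (-0.0031), all on the log2 scale. Over the fits that left out 1 library the log2 fold change ranged from -0.034 to 0.11 for AKT1 and from -0.057 to 0.067 for AKT2. With DESeq2 on the recovered reads 2 of the 7 genes were called lower. With upper-quartile factors 1 gene of the gluconeogenesis list was called higher.

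Leaving out a library moved the counts called higher between 0 and 4 in the insulin signaling list, 0 and 2 in the gluconeogenesis list, 1 and 4 in the regulator list and 3 and 5 among the FOXO targets. The counts called lower ranged from 1 to 2 among the 7 genes and from 0 to 1 in the insulin signaling list, the higher count being that without vector replicate 2. In these fits the causes were not tested beyond the smaller number of samples.

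Libraries of the 2 groups share the numbers 1, 2 and 3. The correlations of same-numbered libraries' deviations from their group means were -0.0127, 0.229 and 0.131. Replicates 2 and 3 of each group correlated best with their own number. Replicate 1 of each group correlated best with replicate 3 of the other group (0.0738 and 0.0795). Nothing in the labels says what a number marks. With the replicate number as a block, 2 of the 7 genes were called lower, IRS1 being added (adjusted p = 0.0051, limma), the insulin signaling list had 4 called higher and 1 lower, and 6 FOXO targets were called lower. The replicate block also called PIK3R1 (adjusted p = 0.036) and SIRT1 (adjusted p = 0.028). Upper-quartile factors moved the median log2 fold change of all genes by -0.0257 and trimmed means of M values by 0.00997, so changes near 0 depend on the scaling. At this depth FBP1 could not be compared.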

Other observations

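Some listed genes differed between libraries of the same group by more than between the groups. SREBF1, which encodes the lipogenic factor that insulin induces in liver, had 7066, 11212 and 4732 scaled reads in the vector libraries, against 8279, 13217 and 10767 in those labelled nPD-L1 (log2 fold change 0.55, adjusted p = 0.456, limma). TRIB3, an inhibitor of AKT that rises under stress, had 3045, 5006 and 2439 against 2236, 4000 and 3061 (adjusted p = 0.853, limma). In both genes replicate 2 was the highest library of its group. SIK1, a kinase that restrains the coactivators of CREB, had 65.6 scaled reads in vector replicate 1, 9.03 and 7.27 in the other vector libraries, and 37.6 to 55.6 in the libraries labelled nPD-L1. Like FOXO4, it was thus highest in vector replicate 1. SERPINA1, a secreted protease inhibitor of hepatocytes, had 41.4 scaled reads in that library and 7.91 to 20.3 in the other 5. These genes were chosen after their values had been seen.

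FOXO6, the remaining FOXO factor, was under the filter on low values and was not tested. It had 5.05, 1.13 and 3.12 scaled reads in the vector libraries, against 9.24, 7.08 and 8.68 in the others.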
